A study of Mus musculus with 28 samples.

Results

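The genes described here are 36 genes of DNA replication and S phase, taken by gene symbol from the 55341 gene names of the deposited count tables. They are the subunits of the MCM2-7 helicase, the factors that license and fire origins, the Cdc45 and GINS partners of the helicase, the sliding clamp and its loader, the polymerases and primase, the single-strand binding and lagging strand enzymes, and 4 regulators (Ccne1, Ccne2, E2f1 and Uhrf1). The members were chosen by name, and all 36 were found in both count tables and passed the filter on low counts in every comparison. RNA was sequenced from 28 whole AB1-HA tumors, each from a different mouse. AB1-HA is a murine mesothelioma line that carries the influenza haemagglutinin gene as a marker antigen, grown under the skin of the flank in female BALB/c.AusBP mice of 8 to 10 weeks. It is a single line, and the tumors were harvested whole, so host cells are in every sample. The 6 groups were vehicle (PBS, 4 tumors), immune checkpoint blockade (ICB, 5 tumors), 5-fluorouracil (5-FU, 5 tumors), cisplatin (4 tumors), 5-FU+ICB (5 tumors) and cisplatin+ICB (5 tumors). 5-FU was given once into the tail vein at 75 mg/kg, cisplatin into the peritoneum at 6 mg/kg, and ICB was 100 µg of anti-CTLA-4 once with 100 µg of anti-PD-L1, which was repeated in 2 additional doses. All tumors were collected 7 days after treatment began. Every chemotherapy and combination was compared with the same 4 PBS tumors, and ICB was the second control of both combinations.

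Cells license their origins in G1, when ORC, Cdc6 and Cdt1 load the MCM2-7 ring onto DNA. At the start of S phase cyclin E and CDK2 activity, with Mcm10, allows Cdc45 and GINS to join the ring, which makes the active CMG helicase. Primase and polymerase alpha then start each strand, RFC loads the PCNA clamp, polymerases delta and epsilon extend, and Fen1 and Lig1 join the lagging strand pieces. Many of these genes are transcribed under E2F factors, so their RNA is high in dividing cells and low in resting ones. 5-FU blocks thymidylate synthase and is built into RNA and DNA, and cisplatin forms crosslinks in DNA. Anti-CTLA-4 blocks an inhibitory receptor of T cells, and anti-PD-L1 blocks a ligand, found on tumor and myeloid cells among others, that signals to T cells through PD-1.

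Promoters of the members are shown first, because some of the members hold a sequence feature there. Many of these genes are transcribed under E2F factors, so matches to the E2F motif are not independent of the choice of members. Of the 36 members, 28 had an entry in the RefSeq promoter table (GRCm38.p6), which gives 250 bases before and 50 after each start site. Mcm4, Gins1, Gins2, Gins4, Rfc2, Prim2, Pole and Ccne2 had none. The windows were searched on both strands for 4 words of the E2F binding motif, TTTCCCGC, TTTCGCGC, TTTGCCGC and TTTGGCGC, any of which can overlap another. At least 1 word was present in 13 of 28 members (46.4%) and 1 of 17 mitotic genes (5.88%). It was present in 704 of 27025 genes with an entry (2.6%), which include genes not tested in these tumors. The CHR words TTTGAA and TTCGAA, searched in the same way, were in 21.4% of members, 21.7% of all genes and 70.6% of mitotic genes. CCAAT was in 64.3%, 41.1% and 82.4%. The stretches below are from members of the helicase, the origin factors, GINS, the clamp loader and polymerase alpha, given 5′ to 3′ on the strand of the gene, with the E2F words in capitals. In Mcm5 and Mcm6 the capitals hold a pair of overlapping words, 1 on each strand. A match describes the sequence and is not evidence of binding in these tumors.
Mcm5 (chr8:75109332-75109391, plus strand): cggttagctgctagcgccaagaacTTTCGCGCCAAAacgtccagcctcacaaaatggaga
Mcm6 (chr1:128359780-128359839, minus strand): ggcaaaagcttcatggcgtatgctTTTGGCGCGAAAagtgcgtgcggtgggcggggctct
Mcm7 (chr5:138172031-138172058, minus strand): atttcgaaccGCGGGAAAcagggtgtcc
Cdc6 (chr11:98907987-98908046, plus strand): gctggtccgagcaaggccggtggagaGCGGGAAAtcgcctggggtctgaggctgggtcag
Gins3 (chr8:95633508-95633535, plus strand): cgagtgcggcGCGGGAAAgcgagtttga
Orc1 (chr4:108579417-108579444, plus strand): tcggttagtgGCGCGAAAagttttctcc
Rfc3 (chr5:151651209-151651236, minus strand): ggaagtgacgtcgcacgcTTTCGCGCtc
Pola1 (chrX:93632260-93632319, minus strand): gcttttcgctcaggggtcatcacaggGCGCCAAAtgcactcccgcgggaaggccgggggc

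The libraries held 23541733 to 33950805 estimated counts each, and of 55341 gene names 17916 were tested in the 5-FU table and 17819 in the cisplatin table. Levels are given as CPM, counts scaled to library size, and differences as log2 fold changes. Of 7 markers of the mesothelial lineage, 4 passed the filter on low counts. Msln ranged from 0.50 to 654 CPM with a median of 142 CPM, Wt1 had a median of 0.597 CPM, and Upk3b and Lrrn4 did not exceed 0.069 and 0.45 CPM in any tumor. Of the 28 libraries, 5 stood apart in a way that touches every result below: their deviations from the median tumor fell with transcript length. Across 10150 genes, Spearman's rho of that deviation with the longest coding transcript was -0.49 in PBS tumor 1, -0.59 in PBS tumor 2, -0.36 in cisplatin tumor 2, -0.55 in cisplatin tumor 4 and -0.61 in cisplatin+ICB tumor 1. In the remaining 23 tumors it lay between -0.231 and 0.395. Among the members, PBS tumors 1 and 2 were lower than PBS tumors 3 and 4 for the 18 longest transcripts (3006 to 7163 bases, median difference -0.34 on the log2 scale) and higher for the 18 shortest (1087 to 2962 bases, median 0.45). The cause of the trend was not tested. Each count of members called against PBS is therefore also given with the trend removed and without these 5 tumors, both of which were added after seeing the data.

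**Figure D1:**
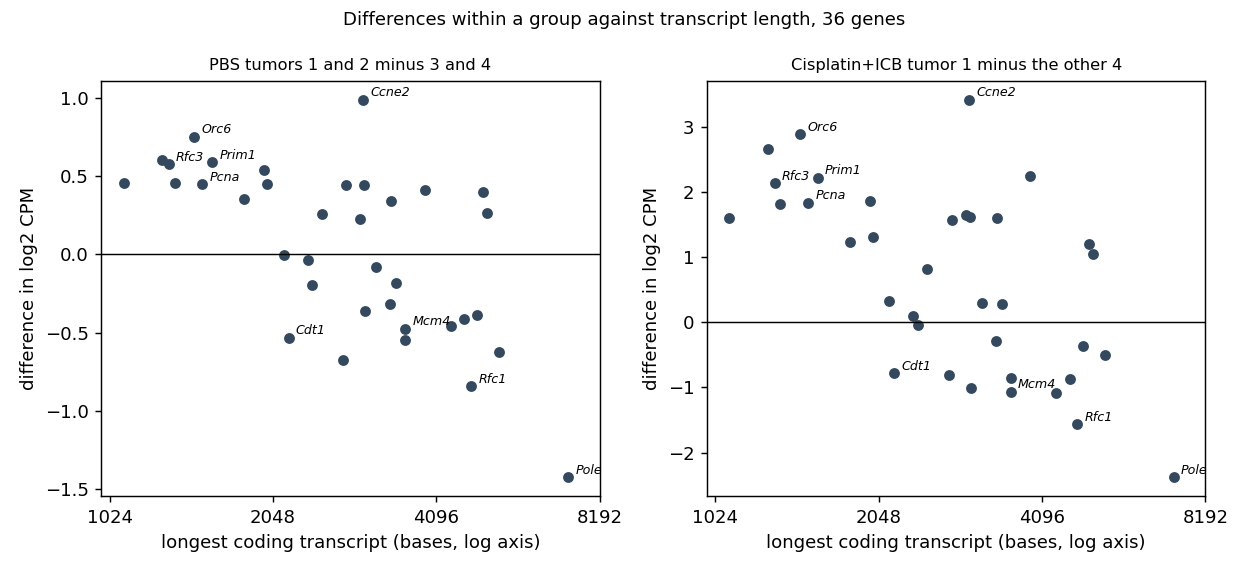
Differences within a group (log2 CPM, vertical axis) for the 36 genes against the length of the longest coding transcript in bases (log axis), 1 point per gene, for PBS tumors 1 and 2 minus tumors 3 and 4 and for cisplatin+ICB tumor 1 minus the other 4 tumors of its group. Short transcripts tend to lie above 0 and long ones below it in both panels, with medians of 0.45 and -0.34 for the shortest and longest 18 in PBS, and of 1.59 and -0.32 in cisplatin+ICB.

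In PBS tumors the levels of the members spanned a wide range per kilobase of exon, so that genes can be compared with each other. Pcna, the sliding clamp, was highest at 151 ± 31.8 CPM per kb (SD, n = 4). It was followed by 4 subunits of the replicative helicase, Mcm5 at 58.9 ± 9.28, Mcm6 at 55.3 ± 13, Mcm7 at 53.1 ± 7.45 and Mcm3 at 49.6 ± 9.37 CPM per kb, which do not differ beyond their spread. The lowest were Mcm10 at 5.08 ± 0.982, Pole, the catalytic subunit of polymerase epsilon, at 5.16 ± 2.90, Gins3 at 5.78 ± 0.889, Orc1 at 5.93 ± 1.81 and Pola1 at 6.50 ± 1.78 CPM per kb, and these too overlap. Exon lengths are unions over all annotated isoforms, so a per-kilobase level is low where long isoforms are not expressed.

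The members varied together over the 28 tumors. The correlation of each member's log2 CPM with the mean of the other members was 0.96 for Lig1, the ligase of the lagging strand, and for Cdc45. It was 0.94 for Pold1, 0.92 for Mcm7 and Orc1, and 0.91 for Mcm5. It was lowest for Pole (0.21), E2f1 (0.30) and Rfc1, the large subunit of the clamp loader (0.32), followed by Mcm4 and Mcm3 (0.50 and 0.51). Members share the library of each tumor, so this describes these 28 libraries and no test was made. Of those 5, Pole, Rfc1, Mcm4 and Mcm3 are among the 18 members with the longest transcripts, and E2f1 is in the shorter set of 18.

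As a summary, the mean log2 CPM over all 36 members was 6.18, 6.25, 6.25 and 6.10 in the 4 PBS tumors. These 4 values are close, but they average over the opposite differences of short and long transcripts given above. In the PBS tumors the mean of the MCM2-7 genes ranged from 7.47 to 7.83, and that of Cdc45 and GINS from 4.95 to 5.44. In ICB the mean over all 36 members was 5.54, 4.91, 5.13, 5.88 and 5.47, and in 5-FU 5.86, 6.10, 5.36, 5.80 and 5.51. In cisplatin it was 5.73, 6.07, 6.10 and 6.03, close to PBS. The combination 5-FU+ICB gave 5.40, 6.17, 5.65, 5.28 and 5.13, and cisplatin+ICB gave 6.25, 5.49, 5.81, 5.49 and 5.54. All 5 ICB tumors and all 4 cisplatin tumors lay below the lowest PBS tumor, and so did 4 of 5 tumors in each of the other groups. The exceptions, 5-FU tumor 2, 5-FU+ICB tumor 2 and cisplatin+ICB tumor 1, were at or near the PBS level, and cisplatin tumor 3 was below it by less than rounding shows. Means differed from PBS by -0.81 in ICB, -0.47 in 5-FU, -0.22 in cisplatin, -0.67 in 5-FU+ICB and -0.48 in cisplatin+ICB. With the length trend removed these differences were -0.61, -0.27, -0.14, -0.45 and -0.24. Cisplatin tumor 4 was then at 5.95, above the lowest PBS tumor at 5.94, so the cisplatin and PBS tumors overlapped. The highest ICB tumor was then at 5.84, still below PBS.

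**Figure D2:**
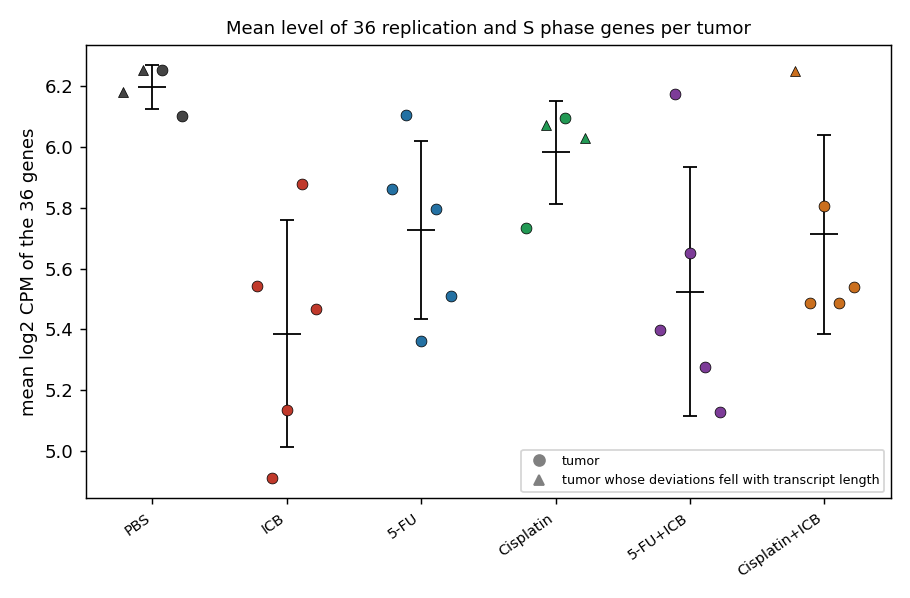
Mean log2 CPM over the 36 genes (vertical axis) in each tumor, grouped by treatment, with 1 point per tumor and the group mean and SD. PBS tumors sit between 6.10 and 6.25, ICB tumors between 4.91 and 5.88, and cisplatin+ICB tumor 1 stands at 6.25 above the rest of its group.

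**Figure D3:**
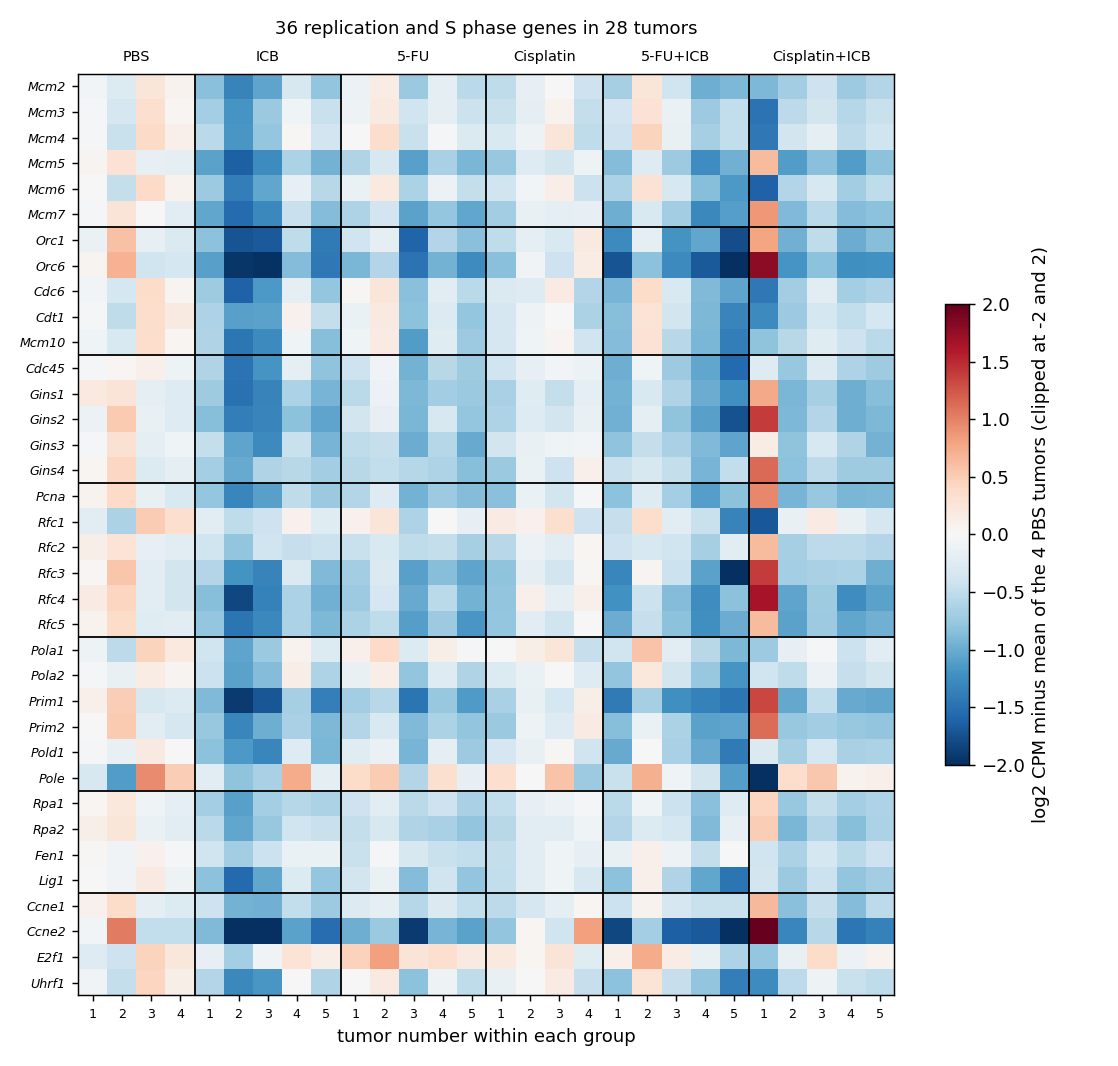
Log2 CPM of each gene in each tumor minus that gene's mean over the PBS tumors (colour scale, clipped at -2 and 2), with genes in rows by role and tumors in columns by treatment. Most genes are below the PBS mean in ICB and 5-FU+ICB tumors, and cisplatin+ICB tumor 1 is above the other 4 tumors of its group for 22 genes and below them for 12 (not counted over all genes).

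The comparison of ICB with PBS asks what checkpoint blockade alone did to replication genes by day 7. Replication genes were lower in ICB tumors, with 25 of 36 members called and none of them higher. Fold changes and calls are from the 5-FU table, while CPM and the overlap of groups are from the joined tables. The same tumors fitted with the cisplatin groups gave 15 called members (10.7% of all genes called lower in that fit). A gene was called where edgeR's quasi-likelihood test gave a Benjamini-Hochberg adjusted p under 0.05 and the log2 fold change was past 0.5 in size. Of all tested genes 18.8% were called lower, against 69.4% of the members. The median over members was -0.78, against -0.03 over all tested genes, and every member had a negative fold change. In 23 members the ICB tumors lay entirely below the PBS tumors, which was so for 21.6% of all tested genes. The called members were 5 of 6 MCM2-7 subunits, 3 of 5 origin factors, all 5 of Cdc45 and GINS, 4 of 6 clamp and loader genes, 3 of 6 polymerase and primase genes, 3 of 4 of the RPA and lagging strand group, and 2 of 4 regulators. Rfc2, another small loader subunit, passed the adjusted p (0.00814, edgeR) but not the fold, at -0.49. In bulk tissue, fewer dividing tumor cells, a larger share of host cells and less RNA per cell cannot be told apart. Summed leukocyte markers were 448 to 585 CPM in PBS and 1130 to 2673 CPM in ICB (3 of 4 called higher).

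Ccne2, one of the cyclins that start S phase (ENSMUSG00000028212.16, chr4:11191351-11204779, plus strand, GRCm38 as for the other positions), was at 41.3, 88.5, 30.6 and 30.4 CPM in the PBS tumors and at 23.2, 8.97, 9.59, 20.4 and 15 CPM in the ICB tumors. The ICB tumors were all below the lowest PBS tumor. Ccne2 fell by 1.64 on the log2 scale (SE 0.38, adjusted p = 0.00312, edgeR). Of the same group, Ccne1 fell by 0.70 (SE 0.17, adjusted p = 0.00392), but E2f1, the transcription factor that turns on many S phase genes, did not pass: it was at 27.5, 24.8, 45.1 and 38.9 CPM in PBS and 29.4, 20.6, 31.5, 40.0 and 36.3 CPM in ICB, and the groups overlapped. Among origin factors, Orc6, a subunit of the origin recognition complex (ENSMUSG00000031697.12, chr8:85299632-85308278, plus strand), was at 83.6, 129, 61 and 62.5 CPM in PBS and 37.5, 20.7, 20.4, 43.8 and 29.7 CPM in ICB, with no overlap, and fell by 1.47 (SE 0.30, adjusted p = 0.00141). Cdt1, which loads the helicase, had the smallest change of this group at 71.6, 51.3, 93.1 and 82.9 and 47.5, 34.2, 34.9, 77.2 and 52.4 CPM, which overlapped, with a log2 fold change of -0.57 (adjusted p = 0.123, edgeR).

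Of the helicase subunits, Mcm5 (ENSMUSG00000005410.6, chr8:75109569-75128439, plus strand) was at 242, 285, 209 and 205 CPM in PBS and 111, 75.5, 97.9, 151 and 121 CPM in ICB, again without overlap, and fell by 1.07 (SE 0.21, adjusted p = 0.00110, edgeR). Mcm7 fell by 0.98. Mcm4 had the smallest change of the ring at 149, 112, 199 and 163 and 105, 68.1, 89.4, 155 and 118 CPM, with overlap in ICB tumors 4 and 5, and its fold change of -0.51 did not pass (adjusted p = 0.0831, edgeR). Among helicase partners the GINS complex subunit Gins2 was at 88.9, 139, 86.6 and 80.6 CPM in PBS and 53.6, 36.8, 38.4, 54.7 and 46.4 CPM in ICB. Its groups did not overlap, and it fell by 1.09 (SE 0.25, adjusted p = 0.00272). Gins4, the smallest change of that group, was at 41.5, 53.7, 33.4 and 35.3 and 25.3, 20.0, 26.6, 27.5 and 24.8 CPM and fell by 0.71 (SE 0.16, adjusted p = 0.00216).

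In the clamp and loader group Rfc4, a small subunit of the loader, was at 38.5, 46.2, 29.2 and 26.5 CPM in PBS and 19.1, 9.65, 13.4, 22 and 17.6 CPM in ICB. The groups did not overlap, and it fell by 1.10 (SE 0.24, adjusted p = 0.00210, edgeR). Pcna fell by 0.87. Rfc1, the large subunit, was at 74.3, 55.4, 123 and 108 and 74.2, 60.3, 64.7, 91.1 and 72.8 CPM, with wide overlap. Prim1, the catalytic primase subunit, was at 60.5, 79.6, 45.5 and 46.8 CPM in PBS and 30.8, 15, 17.3, 35.9 and 22 CPM in ICB, and fell by 1.26 (SE 0.26, adjusted p = 0.00177). Pole, by contrast, ranged over 40.4, 23.2, 96.2 and 70.5 CPM in PBS and 43.2, 28.8, 32, 83.7 and 43.9 CPM in ICB, where tumors of both groups were mixed, with a fold change of -0.26 (adjusted p = 0.598, edgeR). Of the lagging strand genes Lig1 was at 176, 169.7, 201 and 166 CPM in PBS and 100.7, 60.7, 87, 147 and 105 CPM in ICB, and fell by 0.81 (SE 0.25, adjusted p = 0.0163). Fen1, the flap nuclease, was at 64.8, 60.4, 67 and 61.7 and 48.1, 39.2, 47.2, 57.7 and 58.1 CPM. All 5 ICB values of Fen1 were below the PBS values, but the fold change of -0.32 missed the threshold (adjusted p = 0.0507, edgeR).

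The count of 25 fell to 20 with the length trend removed, where the members' median was -0.58 and that of all tested genes 0.11, and 11.2% of genes were called lower. Without the 5 tumors, which leaves 2 PBS tumors, 1 member (Mcm5) was called (3.91% of all genes called lower), but all 36 members remained negative with a median of -0.69. Without PBS tumors 3 and 4 instead, also with 2 PBS tumors, 21 members were called (20.9% of all genes called lower). T cell and macrophage markers were higher in ICB tumors, where summed T cell markers were 27.7 to 35.6 CPM in PBS and 182 to 724 CPM in ICB (7 of 7 markers called higher), and macrophage markers 1421 to 2175 and 3161 to 8990 CPM (6 of 6). Summed mesothelial and tumor markers, mostly Msln, were 273 to 361 CPM in PBS and 54.4 to 218 CPM in ICB. Of the 4 tested markers of that list Wt1, at most 2.78 CPM in any tumor, was called higher (3.03, adjusted p = 0.00226, edgeR) and none lower. Neutrophil markers were 7.63 to 15.9 CPM in PBS and 55.4 to 152 CPM in ICB (2 of 4 called higher). B cell markers, at 13.6 to 17.3 CPM in PBS and 6.64 to 24.4 CPM in ICB, had none of 4 called, and endothelial markers were 60.6 to 119 and 121 to 242 CPM (1 of 3 called higher). The part of these cell types in the lower replication genes was not tested.

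**Figure D4:**
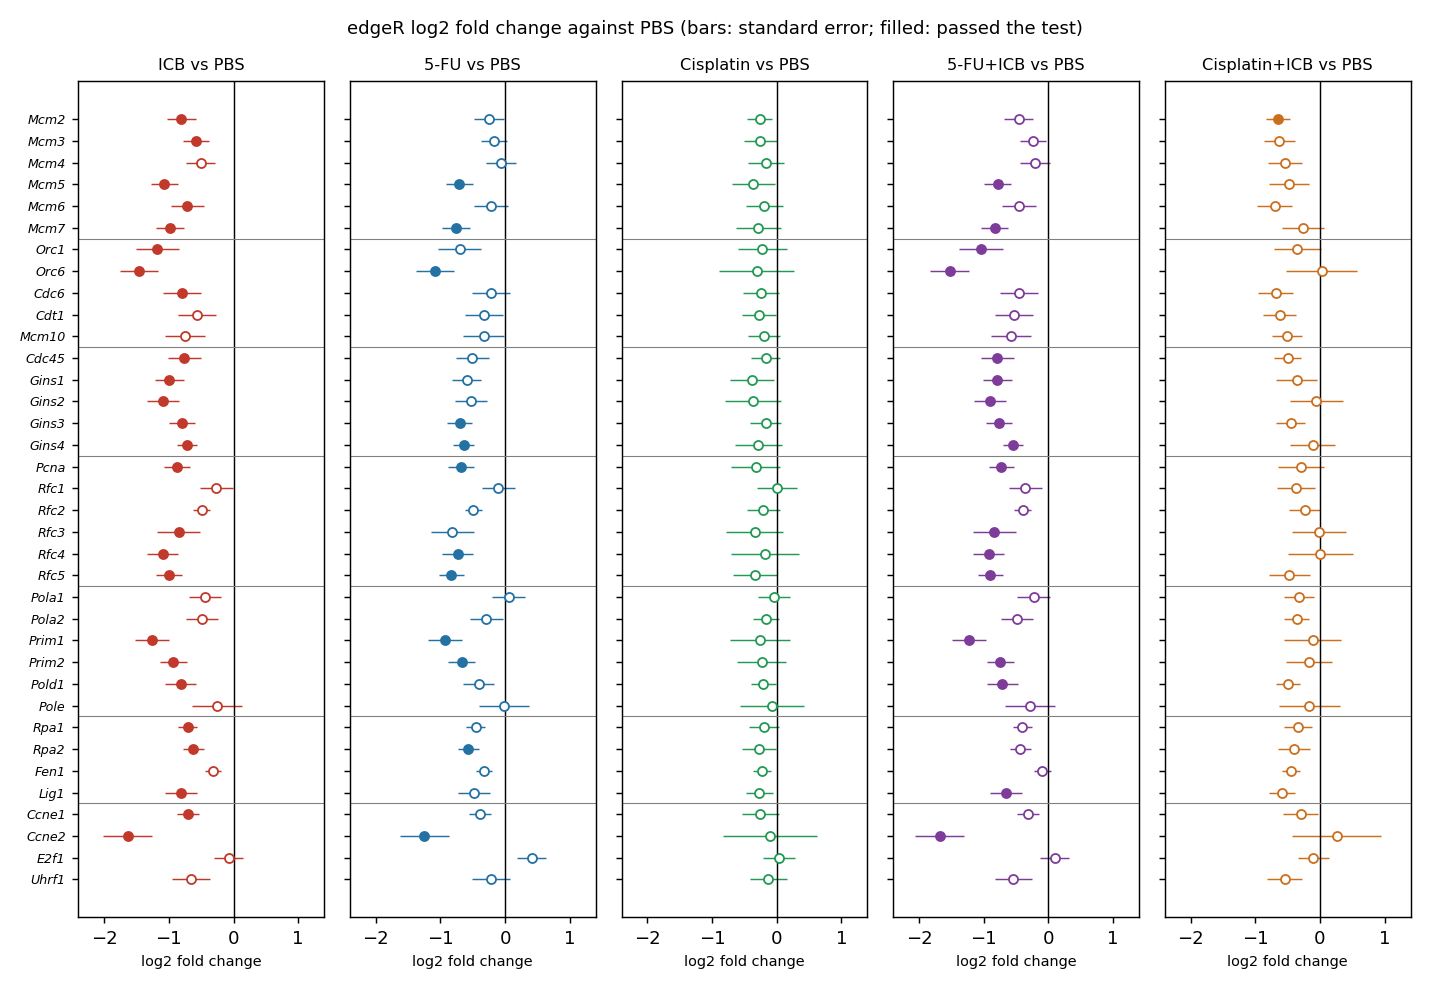
Log2 fold change from PBS (horizontal axis, with bars of 1 SE) of each of the 36 genes (vertical axis, by role) in 1 panel per treatment. ICB, 5-FU and 5-FU+ICB hold most of the called genes (25, 12 and 18), while cisplatin holds none and cisplatin+ICB holds Mcm2.

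5-FU tumors were compared with PBS for the effect of the antimetabolite alone. Of the 36 members 12 were called, all lower, and 5-FU was not tested against ICB. That is 33.3% of members, against 13% of all tested genes called lower. The median over members was -0.49 and over all tested genes -0.01, and 34 members were negative. In 12 members the groups did not overlap, against 17.8% of all genes. The called members were Mcm5, Mcm7, Orc6, Gins3, Gins4, Pcna, Rfc4, Rfc5, Prim1, Prim2, Rpa2 and Ccne2.

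Ccne2 was at 21.8, 25.6, 11.4, 22.6 and 20.3 CPM in 5-FU tumors, all below PBS, and fell by 1.25 (SE 0.38, adjusted p = 0.0238, edgeR). Orc6 was at 42.5, 53.2, 28.8, 41.5 and 33.7 CPM, likewise below the PBS range, and fell by 1.09 (SE 0.29, adjusted p = 0.0150). Prim1 was at 34.9, 38.7, 20.6, 33.6 and 25.9 CPM and fell by 0.93 (SE 0.26, adjusted p = 0.0179). None of these 3 genes overlapped with PBS. Rfc5, another subunit of the loader, was at 102, 125, 81.9 and 83.7 CPM in PBS and 62.2, 68.2, 45.1, 58.5 and 43.1 CPM in 5-FU, with a fall of 0.83 (SE 0.20, adjusted p = 0.00943). Mcm7 was at 229, 278, 234 and 198 CPM in PBS and 152, 178, 111, 137 and 114 CPM in 5-FU, and fell by 0.76 (SE 0.22, adjusted p = 0.0179). Gins3 was at 15, 19.2, 13.8 and 14.7 CPM in PBS and 10.9, 11.3, 7.79, 10.5 and 7.71 CPM in 5-FU, and fell by 0.70 (SE 0.20, adjusted p = 0.0174). All 5-FU tumors lay below the PBS range for these 3 genes. Rpa2, of the single-strand binding complex, fell by 0.57 (SE 0.16, adjusted p = 0.0183), from 49.8, 53.9, 41.9 and 39.1 CPM to 33.1, 36.5, 30.1, 29.3 and 26.5 CPM. The highest 5-FU tumor, at 36.5 CPM, lay just under the lowest PBS tumor, at 39.1 CPM.

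The member with the highest fold change in each role, which is the least negative or a positive one, did not pass. Mcm4 was at 153, 196, 112, 151 and 125 CPM and Rfc1 at 91.1, 102, 56.1, 86.1 and 76.6 CPM in 5-FU, with fold changes of -0.06 and -0.10. Pola1, the catalytic subunit of polymerase alpha, was at 51.6, 38.7, 75.3 and 63.3 CPM in PBS and 59.4, 72.6, 45.8, 60.1 and 54.5 CPM in 5-FU. The groups overlapped in each of these 3 genes. Cdc6, which helps load the helicase, was at 36, 29.2, 48.1 and 38.6 and 37.9, 44.4, 20.9, 32.5 and 25.6 CPM, Cdc45 at 46.8, 49.8, 52.1 and 44.9 and 36.2, 46.2, 25, 32.7 and 29.5 CPM, and Fen1 at 46.8, 62.2, 50.8, 46.5 and 45.1 CPM in 5-FU. Cdc45 had a fold change of -0.50 that did not pass (adjusted p = 0.146, edgeR). E2f1 and Pola1 were the 2 members with a positive fold change, and that of E2f1 was the larger (45.7, 58.3, 39.6, 41.8 and 37.5 CPM, 0.41, adjusted p = 0.177, edgeR). Its groups overlapped.

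The count of 12 fell to 6 with the length trend removed (median -0.25 over members, 0.13 over all genes, 4.68% called lower) and to 0 without the 5 tumors (0.28% of genes called lower), where 35 members were negative with a median of -0.36. It was 4 with no filter on low counts (3.13%) and 0 with all 6 groups in 1 model (1.61%). Without PBS tumors 3 and 4 the count was 18 (18.2%). Without a single tumor it was 5 without PBS tumor 1 (7.04%), 1 without PBS tumor 2 (4.14%) and 6 without 5-FU tumor 5 (8.74%). Summed fibroblast markers were 1441 to 4920 CPM in PBS and 4995 to 9042 CPM in 5-FU (4 of 4 called higher), T cell markers 40.4 to 465 CPM (5 of 7) and macrophage markers 2106 to 7785 CPM (3 of 6) and skeletal muscle markers 6.11 to 1212 CPM (0 of 4) in 5-FU. Summed mesothelial and tumor markers were 46.6 to 178 CPM in 5-FU, below the 273 to 361 CPM of PBS, with 1 of 4 called, Wt1, which was higher (2.67, adjusted p = 0.0109, edgeR). Wt1 did not exceed 2.78 CPM in any tumor. Endothelial markers were 121 to 278 CPM, above the 60.6 to 119 CPM of PBS (1 of 3 called higher). The part of these cell types in the differences was not tested.

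Cisplatin alone did not move any member past the threshold. edgeR called 0 of 36 members and 0% of all genes, 0 members had an unadjusted p under 0.05 (1.78% of all genes), and DESeq2 called 0 members (0.0114% of its genes), with no adjusted p for Gins2 and Ccne2. The median over members was -0.23 and 34 were negative. Fen1 was the only member whose cisplatin tumors, at 45.5, 54.6, 59.6 and 56.3 CPM, all lay below PBS, against 1.91% of all genes. Cisplatin tumors were mixed with PBS for the others, for example at 24.7, 44.1, 32.5 and 75.5 CPM for Ccne2 and 137, 196, 181 and 216 CPM for Mcm5. The SE of the fold change ranged from 0.14 for Fen1 to 0.72 for Ccne2, and a p above the threshold does not show that cisplatin had no effect on these genes. Summed T cell markers were 15.7 to 50.1 CPM and macrophage markers 808 to 2133 CPM in cisplatin tumors, with none called, and 2 of the 4 cisplatin tumors carried the length trend. With the trend removed or without the 5 tumors edgeR again called 0 members, with medians of -0.14 and -0.22.

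In the combination 5-FU+ICB, 18 of 36 members were called lower than PBS and none higher. That is 50% of members, against 18.7% of all tested genes. The median was -0.56, and 35 members were negative. In 10 members the groups did not overlap (14.7% of all genes). The called members were 2 MCM2-7 subunits, 2 origin factors, all 5 of Cdc45 and GINS, 4 clamp and loader genes, 3 polymerase and primase genes, Lig1 and Ccne2. Ccne2 was at 12.1, 26.8, 13.8, 13.4 and 9.35 CPM and fell by 1.68 (SE 0.38, adjusted p = 0.00283, edgeR). Orc6 was at 24.3, 45.5, 33.2, 24.9 and 18.9 CPM and fell by 1.53 (SE 0.30, adjusted p = 0.00129). Prim1 was at 21.1, 35.6, 24.1, 22.3 and 20.9 CPM and fell by 1.23. None of these overlapped with PBS. Gins4 fell by 0.54 from its PBS level to 29.5, 32.2, 28.8, 21.3 and 28.6 CPM, a small change that lay just below the lowest PBS tumor.

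5-FU+ICB tumor 2 was the highest of its group for 34 of 36 members. Its summed leukocyte markers were 603 CPM, the lowest of the group, whose median was 1957 CPM. The count of 18 fell to 11 with the length trend removed (10.9% of genes called lower, median -0.45) and to 0 without the 5 tumors (2.51% of genes called lower, all 36 members negative, median -0.56). T cell markers were 55.6 to 1567 CPM in this group (7 of 7 called higher than PBS) and macrophage markers 1669 to 8055 CPM (5 of 6). B cell markers were 13.4 to 770 CPM, against 13.6 to 17.3 CPM in PBS (3 of 4 called higher), and endothelial markers 145 to 589 CPM, against 60.6 to 119 CPM (3 of 3). Fibroblast markers were 3956 to 6723 CPM, against 1441 to 4920 CPM in PBS (2 of 4 called higher). Skeletal muscle markers were 1.18 to 3922 CPM, against 88.0 to 153 CPM (0 of 4). Summed mesothelial and tumor markers were 37.5 to 169 CPM, below PBS. Of the 4 tested Msln was called lower (-2.28, adjusted p = 0.0238, edgeR), and Wt1 (3.75) and Krt19 (5.74) higher. The last 2 are scarce: Wt1 did not exceed 2.78 CPM in any tumor, and Krt19 had a median of 0.34 CPM over all tumors. The part of these cell types in the result was not tested.

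Against either component alone, the combination changed no member past the threshold. 5-FU+ICB against ICB gave 0 members with edgeR (0.229% of all genes), 2 with an unadjusted p under 0.05, Rpa1 and Ccne1 (10.9% of genes), and 0 with DESeq2 (1.68%), with a median of 0.16. Against 5-FU it gave 0 (0.0112%), 0 (16.6%) and 0 (2.97%), with a median of -0.19. The interaction of 5-FU and ICB is the log2 amount by which the combination differs from the sum of the separate effects. It was positive for 34 members, with a median of 0.67, so that the combination was less low than that sum. edgeR called 0 members (0.0893% of genes), 17 had an unadjusted p under 0.05 (23.9%), and DESeq2 called 10, all higher (9.57% of genes called, 5.38% higher). The smallest adjusted p was 0.0668 (edgeR), for Gins4 and Rpa1, with interactions of 0.81 and 0.76. With the length trend removed the median was 0.41 and 35 members were positive, without the 5 tumors it was 0.50, and edgeR called 0 members in both. Without PBS tumors 3 and 4 the median was 0.89 and 17 members were called, all higher (13.2% of all genes called higher). Without a single tumor the counts were 8 without PBS tumor 3 (6.53%), 7 without PBS tumor 4 (4.2%) and 5 without 5-FU+ICB tumor 4 (3.46%).

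Cisplatin+ICB against PBS gave 1 called member, Mcm2, a helicase subunit (2.78% of members, 1.4% of all genes called lower). A share of 1 in 36 is near the background. Mcm2 was at 154, 132, 189.5 and 168 CPM in PBS and 85.9, 98.9, 119, 96.3 and 106 CPM in cisplatin+ICB, without overlap, and fell by 0.65 (SE 0.19, adjusted p = 0.0467, edgeR). The median over members was -0.36, 33 were negative, and in 6 members the groups did not overlap (4.69% of all genes). Tumor 1 of this group differed from the other 4. It had Ccne2 at 205, 17.4, 29.3, 15.7 and 16.8 CPM, Orc6 at 276, 35.6, 45.2, 34.2 and 34.8 CPM and Pcna at 693, 187, 211, 189 and 193 CPM, where the first of each 5 values is tumor 1. For several longer transcripts it was the lowest, with Pole at 11.5, 63.8, 72.7, 52.7 and 53.7 CPM and Rfc1 at 26.6, 77.6, 95.9, 77.2 and 67.1 CPM. In all, 22 members were above and 12 below the range of the other 4 tumors, and no such count was made over all genes. Leaving out this tumor alone raised the count to 21 called members (58.3%, against 17.1% of all genes called lower), with the 2 trend-bearing PBS tumors still in, while leaving out all 5 tumors gave 2, Mcm5 and Gins2 (4.27% of genes). With the length trend removed the count was 0 (0.5% of genes called lower). It was also 0 without any one of PBS tumors 1, 3 and 4 (0% of genes) or of cisplatin+ICB tumors 2, 4 and 5 (0.158%, 0.169% and 0.266%). Tumor 1 also had the lowest mean log2 CPM of its group for fibroblast (6.57), endothelial (2.72), T cell (1.62), macrophage (7.72) and skeletal muscle markers (2.56). For mesothelial and tumor markers it had the highest (2.64), and for leukocyte, B cell and neutrophil markers it lay within the group. The cause of the profile of tumor 1 was not tested. T cell markers were 23.8 to 400 CPM in this group (6 of 7 called higher than PBS) and macrophage markers 1888 to 3561 CPM (1 of 6). Neutrophil markers were 31.8 to 99.1 CPM, against 7.63 to 15.9 CPM in PBS (3 of 4 called higher), and leukocyte markers 717 to 1709 CPM, against 448 to 585 CPM (2 of 4). Summed mesothelial and tumor markers were 133 to 665 CPM (median 148 CPM), against 273 to 361 CPM in PBS. Of the 4 tested 1 was called, the scarce Wt1, which was higher (2.83, adjusted p = 0.0218, edgeR). The part of these cell types was not tested.

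Cisplatin+ICB against ICB gave 0 called members by edgeR (0% of genes), 8 with an unadjusted p under 0.05 (15.9%) and 0 by DESeq2 (0.26%), with a median of 0.31. Against cisplatin the counts were 0 (0%), 0 (14.2%) and 0 (4.2%), with a median of -0.14. For the interaction of cisplatin and ICB they were 0 (0%), 6 (7.14%) and 0 (0.00285%), and the median was 0.51. 5-FU against cisplatin gave 0 (0.362%), 1 (Gins3, 15.5%) and 0 (3.67%), with a median of -0.21. Finally, 5-FU+ICB against cisplatin+ICB gave 0 by edgeR (0.297%), 6 with an unadjusted p under 0.05 (25.7%), and by DESeq2 3 members lower, Orc6, Prim1 and Ccne2 (8.32% of genes called, 4.94% lower), with a median of -0.16. Without 5-FU+ICB tumor 2 or without cisplatin+ICB tumor 5 edgeR called 3 members (11.6% and 6.1% of all genes). Orc6, Prim1 and Ccne2 are among the ones in which cisplatin+ICB tumor 1 was far above its group.

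**Figure D5:**
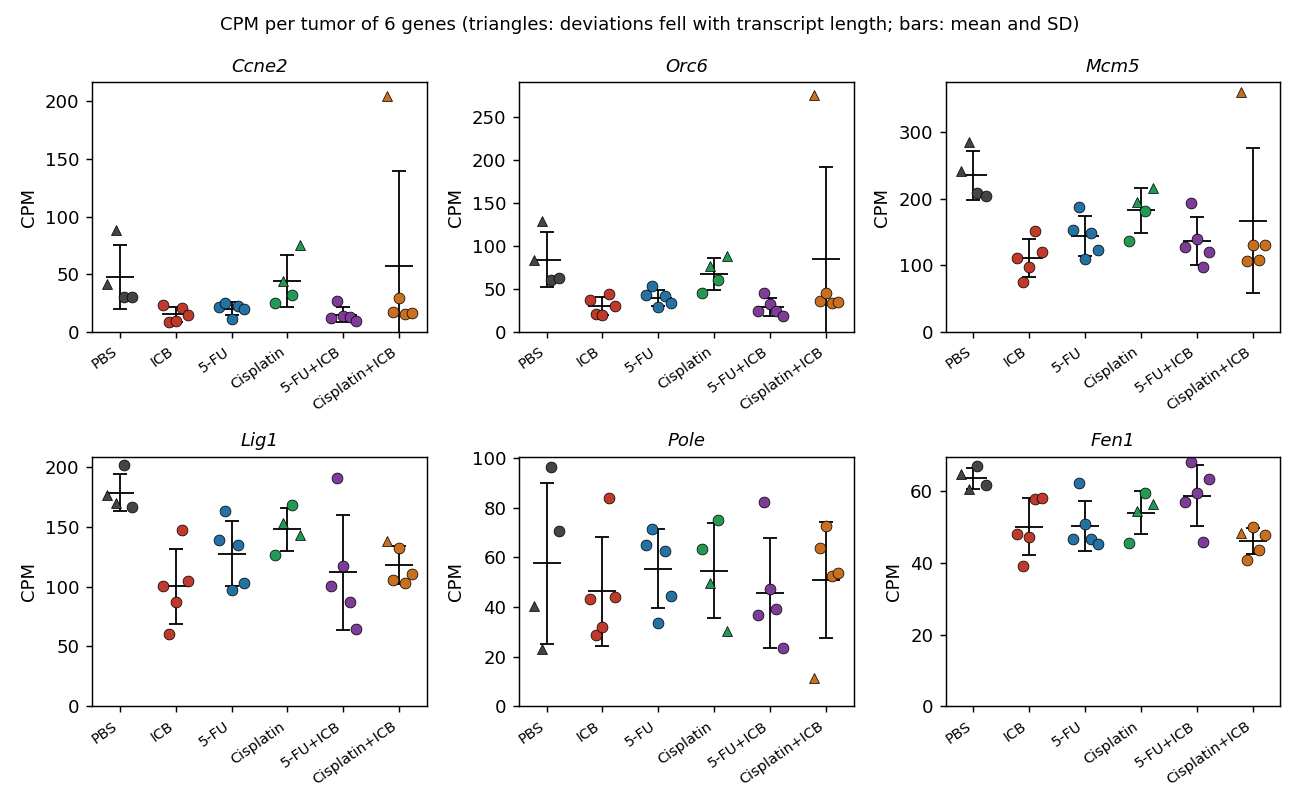
CPM (vertical axis, starting at 0) in each tumor by treatment for Ccne2, Orc6, Mcm5, Lig1, Pole and Fen1, with 1 point per tumor (triangles for the 5 tumors with the length trend) and bars for the group mean and SD, cut at 0. PBS and ICB tumors separate for all of these genes except Pole, narrowly for Fen1. Tumor 1 of cisplatin+ICB is far above its group for Ccne2, Orc6 and Mcm5.

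The 11 members called in no comparison with PBS were Mcm4, Cdt1, Mcm10, Rfc1, Rfc2, Pola1, Pola2, Pole, Fen1, E2f1 and Uhrf1, the last of which couples replication to maintenance of DNA methylation. Of these 11, 7 have transcripts among the 18 longest (Mcm4, Mcm10, Rfc1, Rfc2, Pola1, Pole and Uhrf1). The correlation of the members' log2 fold change with log2 transcript length was 0.38 in ICB, 0.52 in 5-FU, 0.49 in cisplatin, 0.39 in 5-FU+ICB and -0.35 in cisplatin+ICB, over 36 genes that share their libraries.

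Related genes from lists fixed with the members were measured in the same fits. In ICB, where 18.8% of all genes were called lower and 19% higher, 17 of 31 other replication genes were called lower and none higher, with Rpa3, the small RPA subunit, at -1.63, Pole2 at -1.36 and Tipin, a fork protection factor, at -1.27. Of 10 nucleotide supply genes 8 were lower, with Tk1 at -1.53 and Dut at -1.35. Of 20 mitotic genes 11 were lower, with Cdk1 at -1.45, Ccnb2 at -1.40 and Ccnb1 at -1.29. G1/S regulators were mixed, with 6 of 20 lower (Cdk4 -1.17, Ccna2 -1.07, Tfdp1 -0.99) and 4 higher. The CDK inhibitors Cdkn2b and Cdkn2a were higher (2.37 and 2.14), both from under 1 CPM in every PBS tumor to medians of 1.78 and 0.83 CPM in ICB, and Cdkn2d was lower (-0.58). In 5-FU 13% of all genes were called lower and 9.98% higher. The lists of other replication, nucleotide supply and mitotic genes had 11 of 31, 5 of 10 and 6 of 20 genes lower, with Rpa3 at -1.42, Tk1 at -1.11 and Cdk1 at -1.05. Of the G1/S regulators 3 of 20 were lower and 2 higher, with Ccnd2 at 0.78, both near the shares of all genes. The CDK inhibitors Cdkn1b and Cdkn2d were lower (-0.92 and -0.68). In 5-FU+ICB (18.7% of all genes lower) the lists of other replication, nucleotide supply and mitotic genes had 17 of 31, 6 of 10 and 8 of 20 lower, with Rpa3 at -1.55, Tk1 at -1.43 and Cdk1 at -1.35. Cdkn2a, Cdkn2b and Cdkn1c were higher (2.87, 2.34 and 2.31), with medians of 1.11, 1.33 and 1.30 CPM, from under 1 CPM in every PBS tumor. The more abundant inhibitor Cdkn1b, with medians of 76.5 CPM in PBS and 50.5 CPM in 5-FU+ICB, was lower (-0.77, adjusted p = 0.00492, edgeR). Of the 20 G1/S regulators there 8 were lower (Cdk4 -1.11) and 5 higher (E2f2 1.37, Ccnd2 1.08). The share called higher is near that of all genes (21.9%). With the length trend removed the lists of other replication, nucleotide supply and mitotic genes had 14, 8 and 12 genes lower in ICB (11.2% of all genes), 4, 2 and 2 in 5-FU (4.68%) and 13, 5 and 7 in 5-FU+ICB (10.9%). Without the 5 tumors they had 4, 2 and 2 in ICB (3.91%), 0 in each list in 5-FU (0.28%), and 2, 0 and 0 in 5-FU+ICB (2.51%). In cisplatin edgeR called 0 of 88 genes of these lists, 1 (Cdkn1a, 0.58) had an unadjusted p under 0.05, and DESeq2 called 4 genes in the whole table. In cisplatin+ICB only Cdkn1a was, at 0.66 (adjusted p = 0.0221).

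Overlapping annotation limits single genes. The exons of 13 members overlap an exon of another gene, on the opposite strand except for Mcm7 with the microRNAs Mir25 and Mir93 and Rpa1 with Gm47300, and whether the counting used strand is not given in the sources used here. Ccne2 overlaps Ints8, Orc6 overlaps Vps35, Mcm7 overlaps Ap4m1 and Cops6, and Rfc4 overlaps Eif4a2. Pcna has a pseudogene row, Pcna-ps2, with which reads can be shared.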

How the data were processed

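RNA was sequenced from 28 whole tumors (100 base single-end reads). Per the labels and the methods, the authors made the reads with bcl2fastq 2.20.0.422, mapped them to GRCm38/mm10 transcripts with kallisto 0.46.0 and summed them to genes, and they deposited estimated counts per gene in 2 tables, which share the 9 PBS and ICB tumors with 0 differing values. The counts were not normalized, and 23.7% of the values are not whole, so they were rounded. They are the depth behind each value: 23541733 to 33950805 per tumor, where 3 counts are 0.0822 to 0.159 CPM. Counts carry no length correction.

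The counts of each table were filtered (filterByExpr), scaled by TMM and fitted with edgeR 4.0.16 (R 4.3.3), with a quasi-likelihood test of each comparison and Benjamini-Hochberg adjustment over all tested genes. Called means an adjusted p under 0.05 and a log2 fold change past 0.5. Comparisons between the 5-FU and cisplatin arms used the joined tables. DESeq2 1.42.0 was an alternative and the other alternatives are in the closing section. The fit was tested on simulated data. Members and gene lists, and the genes named from them (in each role, the largest and smallest change in ICB and 5-FU, and all called members where 6 or fewer are called), were chosen with earlier results of these data known. CPM are TMM-scaled. Promoters came from RefSeq and gene models from GENCODE (GRCm38). No sample was left out, and 1 gene of the lists is not reported here by name.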

Additional observations from a re-analysis of the deposited data

Results flagged for a closer look

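Within groups of 4 or 5 tumors, 264 sets of log2 CPM values (each member, the mean of each role and the mean over all members) were searched for a tumor far from the others, by the gap to the nearest tumor relative to the range of the group, and 33 were found. Chance alone flags about 1 in 20 groups, and the members share their libraries. Most were cisplatin+ICB tumor 1. It was above the other 4 tumors of its group for Ccne2 (7.68, others 3.98 to 4.87), Orc6 (8.11, others 5.10 to 5.50), Rfc4 (6.74), Rfc3 (7.69), Gins2 (7.99), Prim1 (7.16), Pcna (9.44), Gins4 (6.46), Prim2 (6.78), Mcm5 (8.49), Mcm7 (8.73), Orc1 (5.12), Gins1 (4.92), Rfc5 (7.22), Rfc2 (7.15), Rpa1 (7.81), Rpa2 (6.01) and Ccne1 (5.37). The mean of the Cdc45 and GINS genes was 5.76 in it and that of the clamp and its loader 7.16. For 5 members it was below them: Pole (3.53, others 5.72 to 6.18), Rfc1 (4.74), Mcm3 (6.04), Mcm4 (5.82) and Mcm6 (6.36).

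The remaining 8 values were in other tumors. Mcm7 was 7.18 in cisplatin tumor 1, below the other 3 (7.67 to 7.72), and Orc1 was 4.91 in PBS tumor 2, above the others (4.05 to 4.19). Gins4 was 4.41 in 5-FU+ICB tumor 4, below its group, and Prim1 (5.16) and Ccne1 (4.80) were above it in 5-FU+ICB tumor 2. Rfc2 (5.73) and Rpa1 (6.29) were low in ICB tumor 2, and Ccne2 was low in 5-FU tumor 3 (3.53). For the interaction of 5-FU and ICB edgeR called 0 members and DESeq2 10.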

How the results depend on the processing

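The direction of the mean over the members held in each of the 5 comparisons with PBS under every alternative run, and leaving out 1 replicate gave -0.93 to -0.69 for ICB, -0.57 to -0.38 for 5-FU, -0.25 to -0.13 for cisplatin, -0.84 to -0.57 for 5-FU+ICB and -0.62 to -0.43 for cisplatin+ICB. The counts of called members depended more on the setting. With 1 replicate left out they ran from 18 to 30 (ICB, with 13.6% and 19.8% of all genes called lower in those fits), 1 to 15 (5-FU, 4.14% and up to 15.4%), 13 to 25 (5-FU+ICB, 12% and 23.6%), 0 to 21 (cisplatin+ICB, 0% to 0.266% and 17.1%), 0 to 3 (5-FU+ICB against cisplatin+ICB) and 0 to 8 (interaction of 5-FU and ICB). For ICB the count was 15 in the cisplatin table and 1 without the 5 tumors with a length trend. For 5-FU it was 4 with no low count filter, 0 with all 6 groups in 1 model, 6 with the length trend removed and 0 without the 5 tumors. For 5-FU+ICB the latter pair gave 11 and 0. For cisplatin+ICB the count was 0 with DESeq2 size factors, no filter, all 6 groups in 1 model, only the 2 groups compared, the length trend removed or PBS tumors 3 and 4 left out, and 2 without the 5 tumors. DESeq2 called 3 members in 5-FU+ICB against cisplatin+ICB and 10 in the interaction of 5-FU and ICB, where leaving out PBS tumors 3 and 4 gave 17. The length trend and the 2 sets of tumors left out were chosen after seeing the data. Leaving out the 5 tumors leaves 2 PBS and 2 cisplatin tumors, and otherwise the cause was not tested.

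Replicate numbers do not pair the tumors: deviations of same-numbered tumors had a mean correlation of -0.011 over 66 pairs, against 0.0048 over 260 other pairs. With the number as a replicate block the counts were 20 (ICB), 11 (5-FU), 16 (5-FU+ICB) and 0 (cisplatin+ICB), with 16.9%, 11.4%, 17.4% and 0.0337% of all genes called lower.

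Only uncalled members reversed. Pole in 5-FU was 0.028 with DESeq2 and with its size factors, 0.0447 with no filter, 0.0921 with the block, 0.0364 with 2 groups, 0.73 without PBS tumors 3 and 4, and -0.27 to 0.30 with 1 replicate out. Mcm4 in 5-FU was 0.0203 with no filter, 0.0286 with the trend removed, 0.0985 without PBS tumors 3 and 4, and -0.19 to 0.0340 with 1 out. Pola1 in 5-FU was -0.0891 with the trend removed, -0.17 without the 5 tumors, and -0.0756 to 0.17 with 1 out. Rfc1 in 5-FU was 0.27 without PBS tumors 3 and 4 and -0.26 to 0.0388 with 1 out. In ICB, E2f1 was 0.0983 with the trend removed, 0.20 without PBS tumors 3 and 4 and -0.18 to 0.0912 with 1 out, Pole 0.48 without PBS tumors 3 and 4 and -0.58 to 0.056 with 1 out, and Rfc1 0.10 without PBS tumors 3 and 4. Depth did not limit the members, which were all tested, whereas 4 or 5 tumors a group limit the precision.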
